A study of Mus musculus with 45 samples.

Results

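The hemoglobin genes and a pair of other red cell genes were followed in the nucleus accumbens, a ventral striatal region of the reward circuit, on 45 arrays with 1 mouse each. The set was fixed by annotation. It holds the probesets whose symbols include one beginning with Hba- or Hbb-, or are Alas2 or Slc4a1, and probesets that carry several globin symbols were kept. This gave 19 of the 45037 probesets and 11 of the 19324 annotated genes: Hba-a1, Hba-a2, Hba-x, Hbb-b1, Hbb-b2, Hbb-bs, Hbb-bt, Hbb-bh1, Hbb-y, Alas2 and Slc4a1. No measured value enters that rule, but the family itself was chosen by looking at expression values of these same arrays, so the adjusted p values place the members among all probesets and are not independent support.

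All were adult male C57BL/6J mice that spent 16 h a day in vapor chambers on 4 days in a row, a cycle that was run 4 times with pauses of 7 days. Chronic intermittent ethanol (CIE) mice were injected with ethanol (1.6 g/kg) and pyrazole (1 mmol/kg) before a cycle and inhaled 10 to 13 mg of ethanol per l, whereas controls (Ctrl) were injected with saline and pyrazole and inhaled plain air. Pyrazole, a blocker of alcohol dehydrogenase, was thus shared by all groups. Mice were sampled when the final session ended (0 h) or 8 h, 72 h or 7 d later, with 6 arrays per group except CIE 8 h, Ctrl 8 h and CIE 72 h with 5 each. The mice were killed by decapitation, and no perfusion of the brain is described in the sources used here.

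Hemoglobin joins α-type chains, encoded by the Hba genes, with β-type chains, encoded by the Hbb genes. Both are made in huge amounts in developing red cells, and mature mouse red cells have no nucleus, while the youngest of them in blood, the reticulocytes, still carry globin mRNA. Alas2 is the erythroid form of the enzyme that starts heme synthesis, and Slc4a1 encodes band 3, the anion exchanger of the red cell membrane. A dissected brain piece holds blood in its vessels, and some neurons and glia are also known to express globins. In such bulk tissue, fewer cells of a type and less RNA per cell cannot be told apart.

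The adult globins lie in 2 gene clusters in GRCm38.p6. Hba-a1 is at chr11:32283672-32284486 and Hba-a2 at chr11:32296492-32297310, next to the embryonic Hba-x. Hbb-bt is at chr7:103812524-103813923 and Hbb-bs at chr7:103826523-103827928, next to the embryonic Hbb-bh1 and Hbb-y. Hbb-b1 and Hbb-b2 are placed on an alternate sequence of the assembly, which stands for another strain haplotype. Slc4a1 is at chr11:102348820-102365281 and Alas2 at chrX:150547417-150570622.

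The 250 bases before the start of an α-globin gene, both β-globin genes of the reference chromosome and Alas2 are shown because the probesets that include these genes had the largest falls among the members at 8 h. The globin probesets concerned are shared by several genes, so the arrays do not show which of them moved. They come from RefSeq with the build GRCm38.p6, at chr11:32283422-32283671 on the plus strand for Hba-a1, chr7:103827929-103828178 on the minus strand for Hbb-bs, chr7:103813924-103814173 on the minus strand for Hbb-bt and chrX:150547167-150547416 on the plus strand for Alas2. All run 5′ to 3′ toward the start. Capitals mark exact matches on either strand to GATAA (the core of sites for GATA factors), CACCC (bound by Krüppel-like factors), CCAAT and TATAA. Neighboring matches can touch or overlap.
Hba-a1: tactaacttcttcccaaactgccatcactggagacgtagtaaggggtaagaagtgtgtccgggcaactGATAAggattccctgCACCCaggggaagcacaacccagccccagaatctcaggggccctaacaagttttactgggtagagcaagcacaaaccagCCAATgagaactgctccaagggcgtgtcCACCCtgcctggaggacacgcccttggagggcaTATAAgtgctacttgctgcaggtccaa
Hbb-bs: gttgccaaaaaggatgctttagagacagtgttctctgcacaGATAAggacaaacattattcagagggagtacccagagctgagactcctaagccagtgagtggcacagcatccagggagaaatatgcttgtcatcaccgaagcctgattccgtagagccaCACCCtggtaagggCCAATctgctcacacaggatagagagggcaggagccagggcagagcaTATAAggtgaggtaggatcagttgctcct
Hbb-bt: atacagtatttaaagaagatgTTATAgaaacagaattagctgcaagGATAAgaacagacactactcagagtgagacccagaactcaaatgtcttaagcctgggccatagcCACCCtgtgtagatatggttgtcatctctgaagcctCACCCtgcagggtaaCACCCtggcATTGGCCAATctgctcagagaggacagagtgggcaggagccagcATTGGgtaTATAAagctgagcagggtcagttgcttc
Alas2: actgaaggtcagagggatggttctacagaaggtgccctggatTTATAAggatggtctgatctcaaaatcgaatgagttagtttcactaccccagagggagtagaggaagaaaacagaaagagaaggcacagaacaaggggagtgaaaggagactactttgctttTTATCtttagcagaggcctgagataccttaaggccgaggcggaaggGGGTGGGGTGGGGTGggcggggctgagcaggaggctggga
The windows of Hba-a1 and Hba-a2 share an unbroken run of 247 bases, whereas those of Hbb-bs and Hbb-bt share at most 14 bases in a run and match at 51% of 249 positions when set side by side at their best offset. The Hba-a1 window holds GATAA once, CACCC 2 times, CCAAT once and TATAA 23 to 27 bases before the start. Each motif occurs once in the Hbb-bs window, with TATAA 25 to 29 bases before the start. The Hbb-bt window has CACCC 3 times and CCAAT on both strands, 3 times in all. The Alas2 window has GATAA on the minus strand, CACCC 3 times on the minus strand as one repeat and TATAA far upstream on both strands at overlapping positions, and the letters CCAAT are not in it. Of 32807 windows of the same length, 22.6% held GATAA, 52% CACCC, 33.8% CCAAT and 22.8% TATAA, and 0.969% held all 4 motifs, as the Hba-a1, Hbb-bs and Hbb-bt windows did. These matches describe letters, not sites in use.

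The probesets fell into a bright and a dim part. Probesets 1428361_x_at, 1452757_s_at and 1417714_x_at, shared by Hba-a1 and Hba-a2, and 1417184_s_at, shared by Hbb-bt, Hbb-bs, Hbb-b2 and Hbb-b1, had mean log2 expression values of 13.0, 12.5, 8.68 and 12.1 over the 45 arrays, and 3 of them lay above the 97th percentile of all probesets. Since their probes match near-identical genes, they give a sum over those of the genes that the mice carry and cannot be split. The 4 adult globin probesets with a single symbol were dimmer. Of these, 1427219_at for Hba-a2 averaged 5.24 and 1453574_at for Hba-a1 averaged 4.91. Those annotated to Hbb-b2, 1427865_at and 1427866_x_at, averaged 6.10 and 4.14. Hbb-b2 is placed on the alternate sequence, and which gene its probesets read in C57BL/6J mice was not tested. The 7 probesets of the embryonic globins Hba-x, Hbb-bh1 and Hbb-y stayed between 3.25 and 5.89 on every array. Alas2 averaged 6.32, and the 3 Slc4a1 probesets averaged 4.24 to 4.36 (11.3 to 13.2 as percentiles of all probesets). The array gives no length-corrected level, so brightness ranks probes and not genes.

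The labelled tissue was checked with 12 markers of medium spiny neurons, of which 10 were measured. Their mean log2 value lay between 11.6 and 12.3 on every array, with Penk (an opioid peptide precursor) at 13.7 and Drd1 (a dopamine receptor) at 12.5 over all arrays. The arrays fell into 6 inferred hybridization sets of 6 to 8 arrays, none of which held more than 1 array per group, and 1 array (Ctrl 0 h replicate 20) in none. Medians of the arrays were 6.94 to 6.96. No array pair held identical values.

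At 8 h after the last session the adult globins were lower in CIE mice than in Ctrl mice on every bright probeset. The Hbb probeset 1417184_s_at read 9.47, 10.75, 11.21, 9.82 and 10.44 in the 5 CIE mice and 12.79, 12.36, 12.78, 12.54 and 12.56 in the 5 Ctrl mice (log2 values). The highest CIE array stayed more than a full log2 unit below the lowest Ctrl array, and the CIE mice spread wider (SD 0.70) than the Ctrl mice (SD 0.18). The difference was −2.27 ± 0.29 (log2, SE), or 4.81-fold lower in CIE (adjusted p = 1.26e-05). For α-globin, 1428361_x_at read 10.43, 11.72, 12.06, 10.74 and 11.53 in CIE and 13.61, 13.28, 13.61, 13.44 and 13.46 in Ctrl. Again the groups did not overlap, and the same CIE mice, replicates 1 and 25, were the lowest of all arrays. The fall was −2.18 ± 0.26 for this probeset (4.54-fold, adjusted p = 3.72e-06), −2.23 ± 0.28 for 1452757_s_at (4.71-fold, adjusted p = 8.88e-06) and −2.45 ± 0.33 for 1417714_x_at (5.47-fold, adjusted p = 2.11e-05). Among all 45037 probesets these were the 4 largest falls at 8 h, and by size in either direction they ranked 1, 2, 4 and 5.

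In counts, 4 of the 19 members passed the threshold of 0.01 at 8 h and all 4 were lower, while 0.0622% of all probesets passed in either direction and 0.0311% were lower. The groups did not overlap, with CIE lower, for 6 members, against 0.975% of all probesets. Beside the 4 globin probesets these were Alas2 and 1 Slc4a1 probeset. Over all 19 members the median difference was −0.10 against 0.00096 over all probesets. In limma with the arrays of 8 h alone, 2 members passed, 1417714_x_at (adjusted p = 0.0095) and Alas2 (adjusted p = 0.0093). The other 3 globin probesets had adjusted p values of up to 0.0207. That fit takes the spread from fewer arrays, and why the calls differed was not tested.

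Alas2 read 5.80, 5.99, 5.78, 5.69 and 5.92 in the CIE mice at 8 h and 6.39 to 6.63 in the Ctrl mice, so every CIE value was below every Ctrl value. The difference of −0.69 ± 0.17 ranked 15 from the lowest among all probesets but did not pass (adjusted p = 0.081). Sizes of change are not compared here between probesets of such different brightness. The Slc4a1 probeset 1416464_at was at 4.08 ± 0.06 in CIE and 4.28 ± 0.09 in Ctrl (SD, n = 5 each) with a difference of −0.20 ± 0.07 (adjusted p = 0.41). The others, 1434502_x_at and 1431743_a_at, differed by −0.13 ± 0.09 and −0.01 ± 0.07. All 3 lie low in the range of the array, which limits what they can show. Of the dim globin probesets, those annotated to Hbb-b2 differed by −0.37 ± 0.16 and −0.29 ± 0.10. Those of Hba-a1 and Hba-a2 differed by −0.01 ± 0.09 and −0.05 ± 0.09. None passed. The 7 embryonic globin probesets differed by −0.10 to 0.28, with the smallest adjusted p at 0.25.

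**Figure D1:**
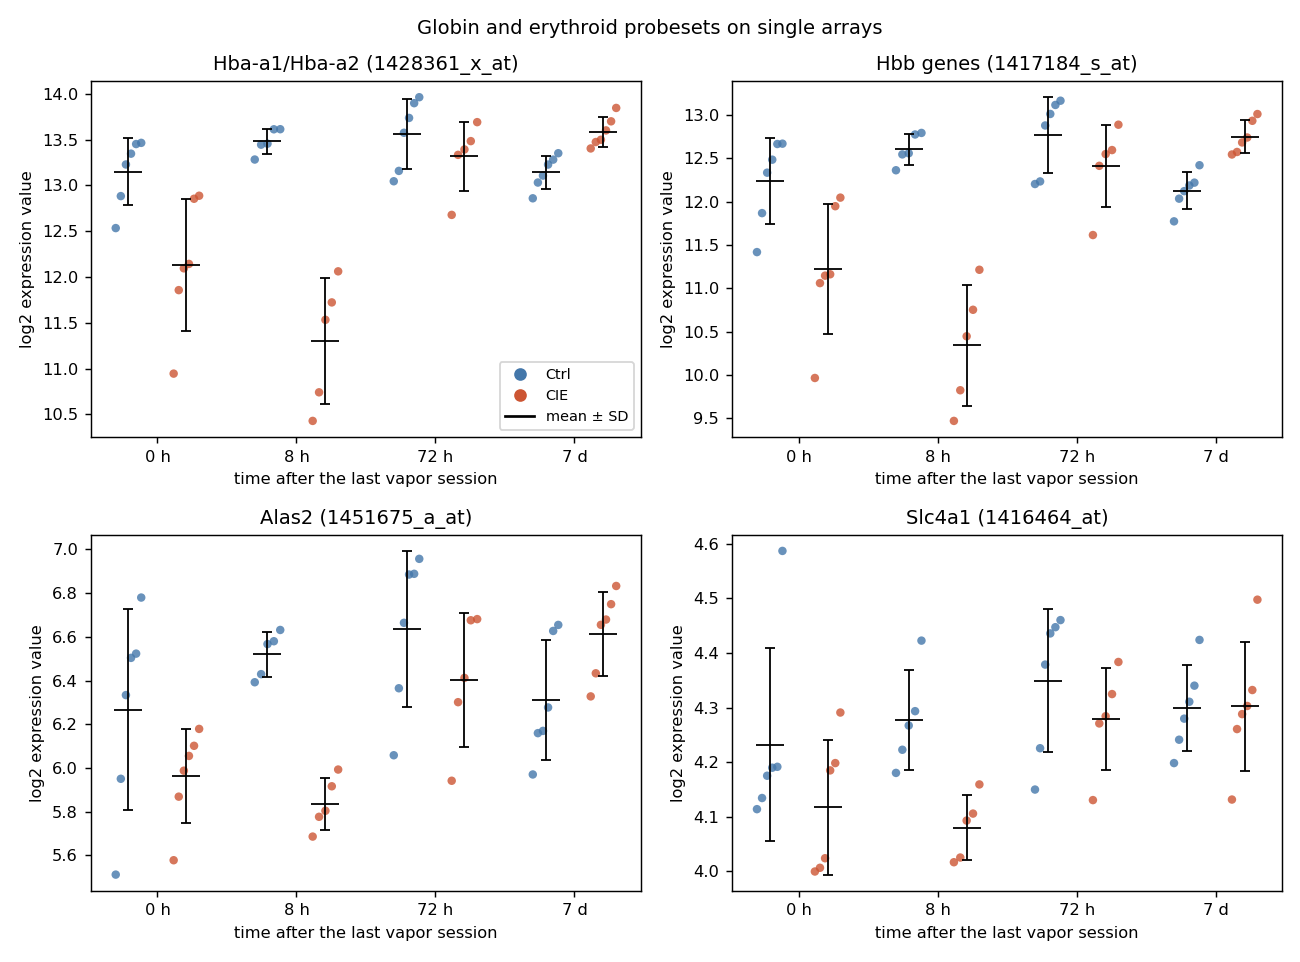
Log2 expression values (y axis) of 4 probesets on the 45 arrays, by sampling time (x axis). Each point is 1 mouse, in blue for Ctrl and orange for CIE, and bars give the group mean ± SD. The Slc4a1 probeset shown is that with the largest fall at 8 h. The CIE mice at 8 h lie below all Ctrl mice of that time in each panel, and the CIE mice at 7 d lie above the Ctrl mice for both globin probesets.

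Directly after the last session, at 0 h, the same probesets were also lower in CIE, by less than at 8 h and with overlap between the groups. The Hbb probeset had its lowest, median and highest values at 9.96, 11.15 and 12.05 in the 6 CIE mice and at 11.42, 12.41 and 12.67 in the 6 Ctrl mice. The CIE mice were the more variable group, and CIE replicate 26 was the lowest of them. The difference was −1.02 ± 0.27 (2.03-fold lower, adjusted p = 0.0189). For 1428361_x_at the lowest, median and highest values were 10.95, 12.12 and 12.89 in CIE and 12.53, 13.29 and 13.46 in Ctrl, and the difference of −1.02 ± 0.24 (2.03-fold) was the only one to pass at 0 h (adjusted p = 0.0078). The remaining α-globin probesets differed by −0.98 ± 0.26 (adjusted p = 0.0194) and −1.16 ± 0.30 (adjusted p = 0.0168).

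This was 1 of 19 members at the threshold of 0.01, where 1.59% of all probesets passed in either direction and 0.619% were lower in CIE. At a threshold of 0.05, 4 members passed, all lower, against 1.63% of all probesets. The call at 0.01 depended on single mice. It fell to 0 members without any one of Ctrl 0 h replicates 30, 38, 74 and 78 or CIE 0 h replicates 5, 26, 67 and 72, and rose to 4 without Ctrl 0 h replicate 20, CIE 0 h replicate 17 or CIE 0 h replicate 43. No member was called with the hybridization sets as a block. Alas2 differed by −0.31 ± 0.16 at 0 h (adjusted p = 0.33), and Slc4a1 by −0.11 to 0.07. The median over the 19 members was −0.04, and over all probesets 0.0042.

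The fall at 8 h was numerically larger than that at 0 h, by −1.16 to −1.29 on the bright globin probesets. That difference did not pass (smallest adjusted p = 0.43). In limma, 0 of 19 members and 0% of all probesets passed this comparison. An unadjusted p under 0.05 was found for 5 members and for 2482 of the 45037 probesets. Within CIE, 8 h against 0 h gave −0.83 to −0.90, again with 0 members passing, against 0.633% of all probesets. There 5 members and 5707 of the 45037 probesets had an unadjusted p under 0.05, and 2 members passed without CIE 0 h replicate 26.

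At 72 h the globins of CIE and Ctrl mice overlapped. The Hbb probeset was at 12.41 ± 0.48 (SD, n = 5) in CIE and 12.77 ± 0.44 (SD, n = 6) in Ctrl. The 5 CIE mice read 12.41, 12.60, 12.55, 11.61 and 12.89, and the Ctrl mice ran from 12.20 to 13.16, so that only CIE replicate 61 fell outside the Ctrl range. The difference was −0.36, with a 95% confidence interval from −0.92 to 0.21. For the α-globin probesets it was −0.23 to −0.44, and for 1428361_x_at the interval ran from −0.75 to 0.26. Alas2 differed by −0.23 ± 0.17. In limma none of the 19 members and 0% of all probesets passed. An unadjusted p under 0.05 was found for 3242 of the 45037 probesets and for 2 members, a Slc4a1 and an Hbb-bh1 probeset, both higher in CIE. The dim Hba-a1 probeset 1453574_at had values in CIE above those of all Ctrl mice, with a difference of 0.17 ± 0.09, and 0.526% of all probesets had such a separation.

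At 7 d the sign was the opposite. The Hbb probeset had its lowest, median and highest values at 12.54, 12.71 and 13.01 in CIE and at 11.77, 12.15 and 12.42 in Ctrl. All 6 CIE mice read above all 6 Ctrl mice, and both groups were tight (SD 0.19 and 0.22). The difference was 0.62 ± 0.27, or 1.54-fold higher in CIE, with a 95% confidence interval from 0.09 to 1.16. For 1428361_x_at the CIE mice had 13.40, 13.55 and 13.85 as their lowest, median and highest values and the Ctrl mice 12.86, 13.17 and 13.35, again without overlap, and the difference was 0.44 ± 0.24 (1.36-fold). The others were higher by 0.46 ± 0.26 and 0.62 ± 0.30.

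None of these differences at 7 d passed the test over all probesets in limma (adjusted p = 1.00 for each), where 0 of 19 members and 0% of all probesets were called. An unadjusted p under 0.05 was found for 2 members and for 1056 of the 45037 probesets. The model shares 1 estimate of spread per probeset over all 8 groups, and that spread includes the wide CIE groups at 0 h and 8 h. Whether this bears on the result at 7 d was not tested. Under the 19 alternatives run in limma, none of the 4 bright globin probesets passed at 7 d (smallest adjusted p = 0.985). The 4 bright globin probesets were higher in CIE without overlap, which held for 0.0711% of all probesets. In size in either direction they ranked 19, 20, 55 and 68 of 45037. Alas2 was higher by 0.30 ± 0.16 with overlapping groups, and the Slc4a1 probesets differed by −0.02 to 0.02.

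**Figure D2:**
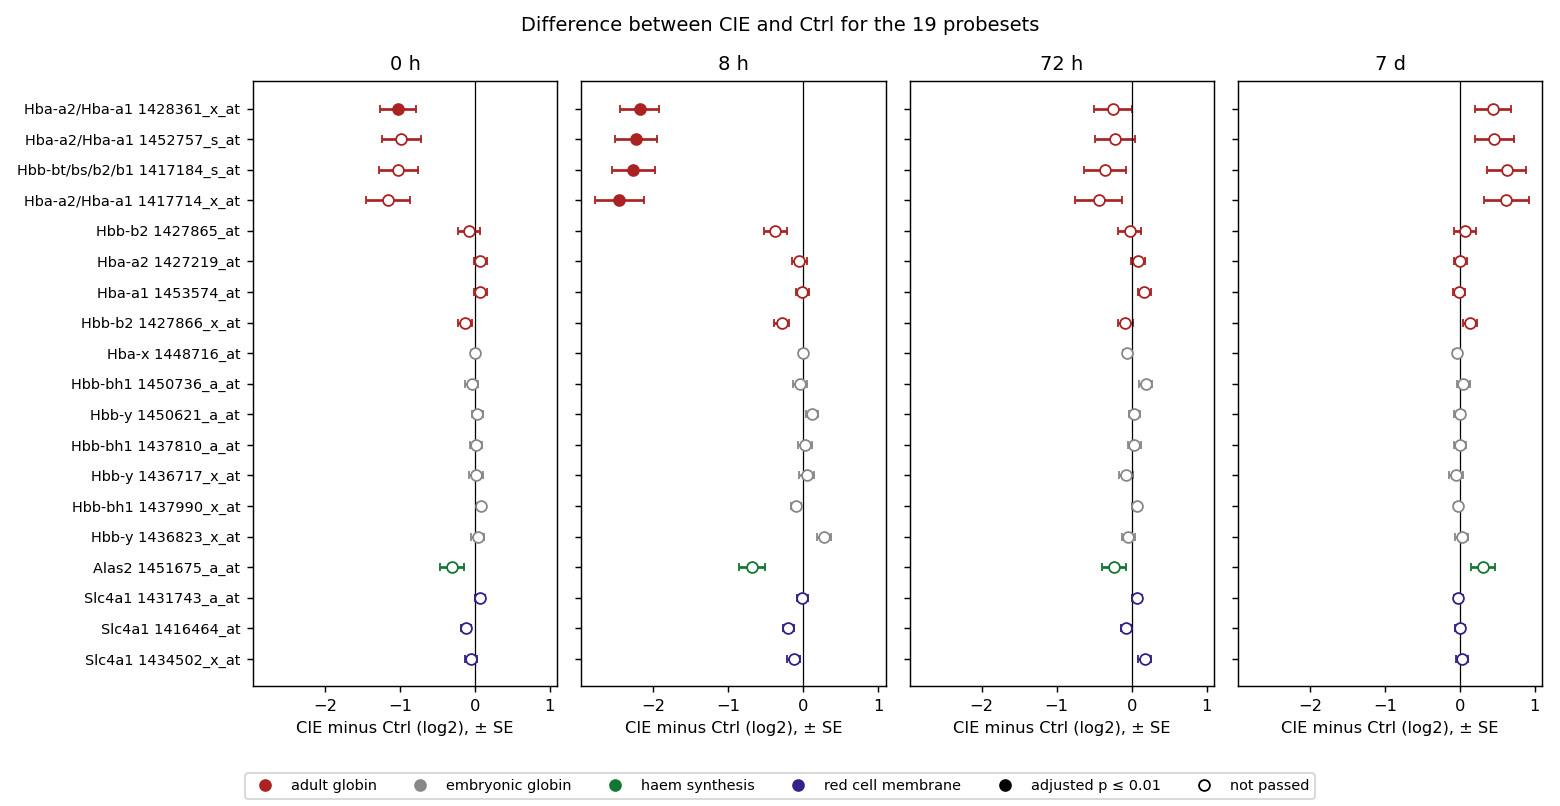
CIE minus Ctrl differences (x axis, log2, ± SE) of the 19 probesets (y axis) at the 4 times, colored by role. Filled points passed the adjusted p threshold of 0.01: 1 probeset at 0 h and 4 at 8 h. The 4 bright adult globin probesets lie at −0.98 to −1.16 for 0 h, −2.18 to −2.45 for 8 h, −0.23 to −0.44 for 72 h and 0.44 to 0.62 for 7 d, and the embryonic globins stay near 0.

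The changes at different times were compared directly. The CIE minus Ctrl change at 7 d exceeded that at 8 h by 2.89 ± 0.39 for the Hbb probeset (adjusted p = 9.05e-05) and by 2.63 ± 0.35, 2.69 ± 0.38 and 3.07 ± 0.44 for the α-globin probesets (adjusted p = 9.05e-05, 0.000138 and 0.000151). These 4 members passed, against 0.0178% of all probesets. The change at 7 d exceeded that at 0 h by 1.44 to 1.78, which passed at 0.05 but not at 0.01 (adjusted p = 0.0215 to 0.0426), and 0.326% of all probesets did so in that direction. The change at 72 h exceeded that at 8 h by 1.91 to 2.01. No member passed at 0.01, while 0.00444% of all probesets passed as higher. At 0.05, 2 members passed as higher, against 6 of the 45037 probesets. An unadjusted p under 0.05 was found for 6 members and for 2312 probesets. Leaving out CIE 8 h replicate 23 gave 1 call there, and for 7 d against 0 h leaving out CIE 0 h replicate 17 or CIE 0 h replicate 43 gave 2. Alas2 followed the same order, with its change at 7 d above that at 8 h by 0.99 ± 0.23, but did not pass (adjusted p = 0.21).

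Levels were also followed over time within each treatment. An F test over the 4 times passed in CIE for 5 of 19 members, against 2.27% of all probesets. They were the 4 bright globin probesets (adjusted p = 2.49e-08 to 1.44e-07) and Alas2 (adjusted p = 0.0032). In Ctrl mice the same test passed for 0 of 19 members in limma, against 0.233% of all probesets. An unadjusted p under 0.05 was found for 1 member (1417714_x_at) and for 3133 of the 45037 probesets. The Hbb probeset of the Ctrl mice averaged 12.24, 12.61, 12.77 and 12.13 in order of time, with SDs of 0.18 to 0.50. Because the effect of time in CIE against Ctrl is the comparison of changes given above, the F tests alone do not show that the groups differ.

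From 8 h to 72 h the globins of the CIE mice rose by 2.02 to 2.28 (4.05-fold to 4.84-fold, adjusted p = 6.26e-06 to 3.23e-05) without overlap. Such a separation held for 4 members and for 449 of the 45037 probesets. 4 of 19 members passed as higher, against 0.0688% of all probesets. From 0 h to 72 h they rose by 1.19 to 1.44 (4 members passed as higher, against 0.968% of all probesets), and from 0 h to 7 d by 1.44 to 1.77 (4 members, against 0.702%). The first of these calls rested on single mice, with 0 members passing without CIE 0 h replicate 26, CIE 72 h replicate 29 or CIE 72 h replicate 63, 1 without CIE 0 h replicate 5 or CIE 72 h replicate 33, and 2 without CIE 0 h replicate 67, CIE 0 h replicate 72 or CIE 72 h replicate 3. The rise to 7 d kept 4 or 5 members whichever array was left out. From 72 h to 7 d the CIE mice differed by 0.24 to 0.34 with overlap. Alas2 rose from 5.96 ± 0.22 at 0 h to 6.61 ± 0.19 at 7 d in CIE (SD, n = 6 each), a difference of 0.65 ± 0.16 with no overlap that narrowly missed the threshold (adjusted p = 0.0114). From 0 h to 7 d, 5 members and 442 of the 45037 probesets rose without overlap.

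Placed in order of the group means, the Hbb probeset ran from CIE 8 h (10.34) and CIE 0 h (11.22) to Ctrl 7 d (12.13), Ctrl 0 h (12.24), CIE 72 h (12.41), Ctrl 8 h (12.61), CIE 7 d (12.75) and Ctrl 72 h (12.77). Neighbors among the upper 6 groups were at most 0.19 apart, less than the SD of the wider group of each pair. The steps from CIE 8 h to CIE 0 h (0.88) and from there to Ctrl 7 d (0.91) exceeded the SD of 0.75. Alas2 had CIE 8 h and CIE 0 h as its lowest groups and CIE 7 d and Ctrl 72 h as its highest, as the Hbb probeset did, and none of its neighboring groups differed by more than the larger SD of the pair.

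From mouse to mouse, α-globin and β-globin varied together. After removal of the group means, the mean of the 3 α-globin probesets and the Hbb probeset had r = 0.99 and rho = 0.98 over the 45 arrays, and single pairs of the 4 bright probesets had r from 0.96 to 1.00. Hba and Hbb genes lie on different chromosomes, and the probesets share the array and its scaling. The dim single-symbol probesets followed them less closely, with r from −0.01 to 0.60, and the embryonic globins not in a common direction (r from −0.24 to 0.40).

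Alas2 also varied with the globins inside groups. Against the mean of the 8 adult globin probesets it had r = 0.66 and rho = 0.72 over 45 arrays, given as a description, since all of these probesets are members and share each array. Without the 2 arrays farthest from the median globin mean, CIE 8 h replicates 1 and 25, r was 0.70. With both group and set means removed r was 0.57, and inside the single sets it ranged from 0.24 to 0.86 and was positive in 6 of 6. The 3 Slc4a1 probesets gave r of −0.08, 0.13 and 0.20, and with the group means left in 1416464_at gave 0.57.

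**Figure D3:**
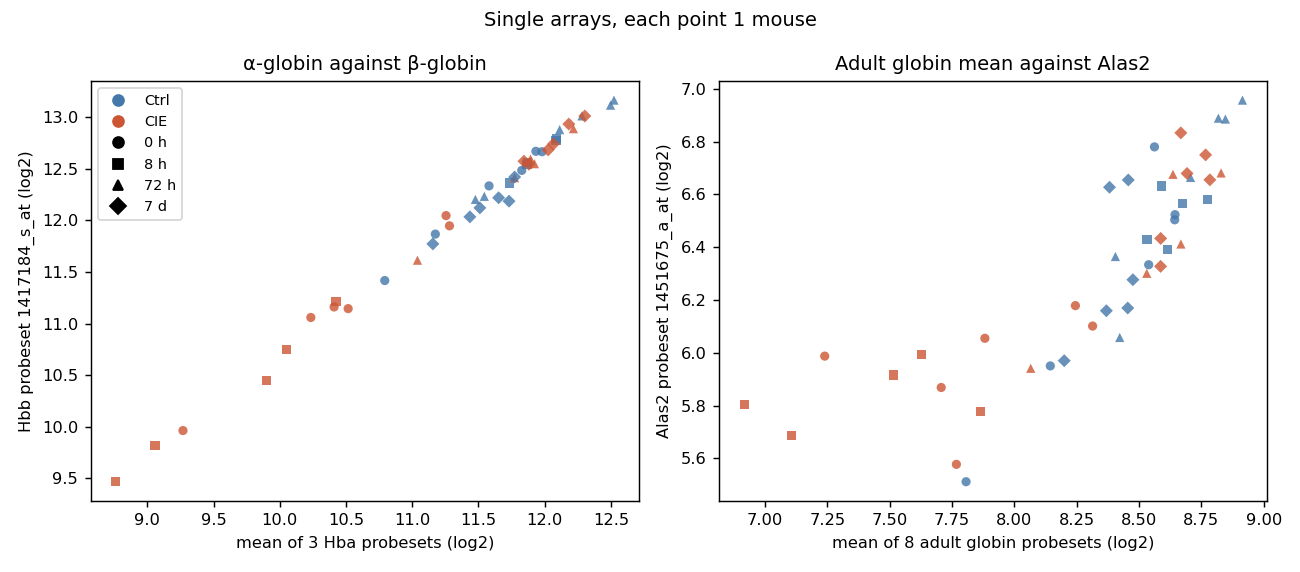
Single arrays, with each point 1 mouse, colored by treatment and shaped by time, on log2 axes. Left, the mean of 3 α-globin probesets (x) against the Hbb probeset (y), which fall on one line (r = 0.99 with group means removed). Right, the mean of 8 adult globin probesets (x) against Alas2 (y), a looser relation (r = 0.66 with group means removed), with the CIE mice of 0 h and 8 h at the lower left.

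Differences were also taken within hybridization sets. The sets were inferred from exactly equal values, and a set holds at most 1 CIE and 1 Ctrl array of a time. For the Hbb probeset at 8 h, CIE was lower in 5 of 5 sets, by −1.56 to −3.32 with a median of −2.11. At 0 h it was lower in 5 of 5 sets, by −0.62 to −1.90. At 72 h it was lower in 4 of 5, and at 7 d it was higher in 6 of 6, by 0.32 to 0.91. Alas2 was lower in 5 of 5 sets at 8 h (−0.44 to −0.80), lower in 4 of 5 at 0 h and higher in 6 of 6 at 7 d (0.03 to 0.86).

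**Figure D4:**
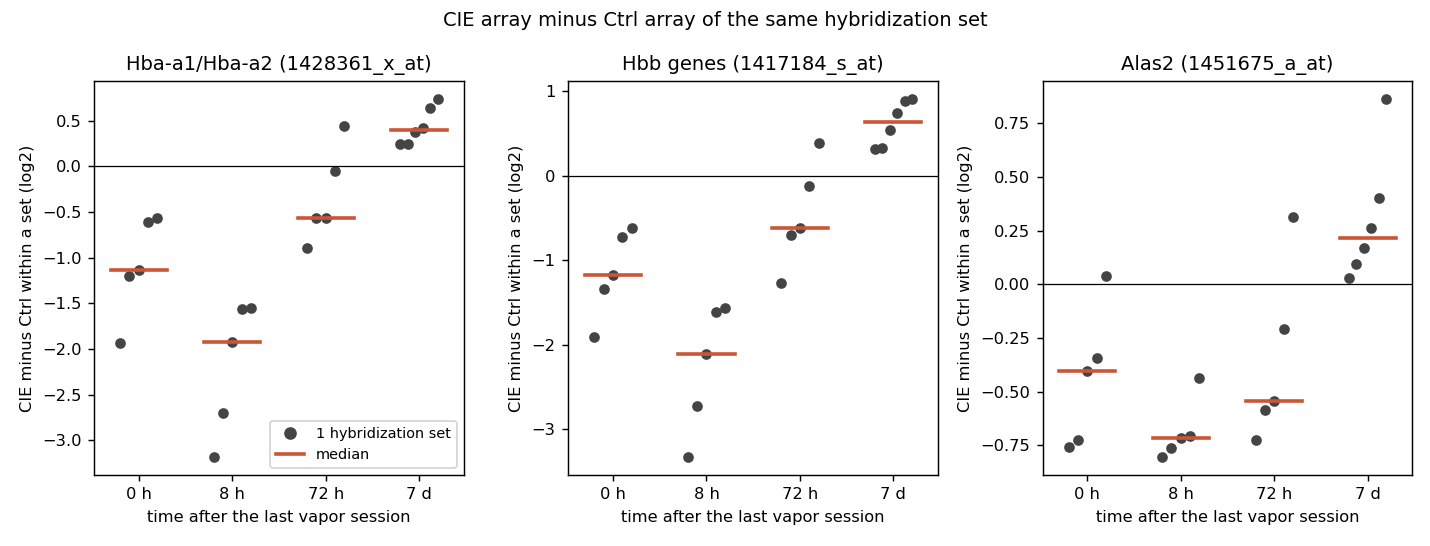
CIE array minus Ctrl array of the same inferred hybridization set (y axis, log2) for an α-globin probeset, the Hbb probeset and Alas2, by time after the last session (x axis). Each point is 1 set (5 sets at 0 h, 8 h and 72 h, 6 at 7 d) and bars are medians. All globin differences are below 0 at 0 h and 8 h and above 0 at 7 d.

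No other listed gene of the erythroid program passed at 8 h, when 0.0622% of all probesets passed. At 0 h 1.59% passed, and at 72 h and 7 d 0%. With so few calls in all, the lack of a call in a short list says little. Of 7 measured enzymes of heme synthesis other than Alas2, 0 passed at any of the 4 times, and their median change at 8 h was −0.04 (Cpox, coproporphyrinogen oxidase, −0.21 ± 0.20; Alas1, the form of the enzyme used outside red cells, 0.11 ± 0.06). Of 9 erythroid transcription factors 0 passed at any time, with Lmo2, a bridging partner of GATA1 and TAL1, at −0.44 ± 0.12 at 0 h (adjusted p = 0.021) and −0.27 ± 0.13 at 8 h, and Tal1 itself at −0.20 ± 0.10 at 8 h. Their signs were mixed. At 0 h 8 of the 9 were positive (median 0.06) and Lmo2 was the negative one, and at 8 h 7 of the 9 were negative (median −0.06). Klf1, a Krüppel-like factor of red cell precursors named here after its values were seen, differed by 0.20 ± 0.07 at 8 h (adjusted p = 0.33). Of 13 genes of the red cell membrane and skeleton, 0 passed at 8 h and 1, the glucose transporter Slc2a1, was higher at 0 h (0.33 ± 0.07, adjusted p = 0.0035). The 12 measured genes of red cell cytosol and maturation had 0 calls and a median of −0.03 at 8 h, with Cat (catalase) at −0.13 ± 0.10 and Blvrb (a biliverdin reductase) at 0.12 ± 0.08. Many of these genes are also expressed in brain cells, while Gata1 and Nfe2 averaged 4.85 and 4.63, low in the range of the array.

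Of 8 genes of iron and erythropoietin signaling, 1 passed, at 0 h: Slc25a37 (mitoferrin, which carries iron into mitochondria for heme synthesis) was lower in CIE by −0.44 ± 0.09 (adjusted p = 0.0034), and by −0.20 ± 0.10 at 8 h (adjusted p = 0.70). Among 9 genes that bind or clear free hemoglobin and heme, 0 passed. Hmox1, the heme oxygenase that breaks heme down, was 0.38 ± 0.10 higher at 8 h (adjusted p = 0.13), and Cd163, the scavenger receptor for hemoglobin, differed by 0.12 ± 0.16. The 4 globins not confined to red cells did not pass either, with Cygb (cytoglobin) at −0.21 ± 0.13 and Ngb (neuroglobin) at 0.13 ± 0.22 at 8 h. Of 10 hypoxia-responsive genes the only call was again Slc2a1 at 0 h, and Pfkfb3 and Adm differed by −0.16 ± 0.11 and 0.15 ± 0.11 at 8 h. Signs in this list were mixed at 0 h. Ankrd37, Vegfa and Pfkfb3 differed by −0.42 ± 0.11, −0.31 ± 0.10 and −0.30 ± 0.10, without passing. Car9 and Egln3 differed by 0.19 ± 0.12 and 0.11 ± 0.11, also without passing.

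Markers of other cells of blood and vessels were set beside the globin fall. At 8 h none of 8 platelet, 10 neutrophil, 8 lymphocyte, 10 endothelial, 10 pericyte and smooth muscle, 8 choroid plexus or 8 meningeal fibroblast markers passed, and the list medians ran from −0.07 to 0.12. Of all probesets 0.0622% passed at that time. The gene of largest change in its list was Ccl5 (a T cell chemokine, 0.65 ± 0.40) for lymphocytes, Kl (0.55 ± 0.19) for choroid plexus, Col3a1 (a collagen, −0.37 ± 0.17) for meningeal fibroblasts, Lcn2 (0.31 ± 0.09) for neutrophils and Gp9 (a platelet glycoprotein, −0.18 ± 0.07) for platelets. In the endothelial list it was the efflux transporter Abcb1a, higher by 0.28 ± 0.06 (adjusted p = 0.031). The choroid plexus gene Ttr differed by 0.33 ± 1.02. The endothelial list averaged 8.35 to 8.64 in CIE and 8.43 to 8.63 in Ctrl at 8 h, and the platelet list 6.22 to 6.32 and 6.24 to 6.33. The pericyte list averaged 7.71 to 7.87 in CIE and 7.79 to 7.92 in Ctrl, with Rgs5 (a pericyte signaling regulator) at −0.33 ± 0.09 and no overlap (adjusted p = 0.12). The neutrophil list averaged 4.90 in CIE and 4.88 in Ctrl at 8 h (group means). Cd3g of the lymphocyte list and Ppbp of the platelet list averaged 4.21 and 4.50 over all arrays. Such dim probesets limit what these lists can show. The part of vessels or other blood cells in the globin result was not tested.

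At 0 h more moved alongside. The pericyte list was negative for 9 of 10 genes with a median of −0.22 and 1 call, Vtn (vitronectin), at −0.46 ± 0.07 (adjusted p = 0.00011). It averaged 7.42 to 7.90 over the CIE arrays and 7.76 to 7.95 over the Ctrl arrays. The medium spiny neuron list was negative for 10 of 10 genes with a median of −0.23 and no call (Rgs9, a striatal regulator of G protein signaling, at −0.41 ± 0.12, adjusted p = 0.035), and averaged 11.56 to 12.28 in CIE and 11.96 to 12.27 in Ctrl. Signs in the endothelial list were mixed at 0 h. Tek and Kdr differed by −0.31 ± 0.09 and −0.24 ± 0.07 and Abcb1a by 0.20 ± 0.06, without passing. The part of these lists in the lower globin values at 0 h was not tested. All 10 medium spiny neuron markers were also negative at 7 d (median −0.12), with no call. Their part in the globin values at 7 d was not tested either.

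The adult globin mean was also entered as a covariate in the model of all other probesets. At 0 h, 716 of the 45018 other probesets passed without it and 182 with it, 180 of them in both. At 8 h 23 passed without it and 1 with it. The globin mean itself differed between the groups by −0.53 at 0 h and −1.23 at 8 h, so what it accounts for and what treatment accounts for cannot be told apart in these counts. Leaving out 1 array at 0 h moved the count of 182 to between 61 (without Ctrl 0 h replicate 20) and 241 (without CIE 0 h replicate 17), and it was 103 without Ctrl 0 h replicate 48 and 113 without CIE 0 h replicate 5.

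The genes whose values resembled the adult globin mean most, over the 45 arrays with group means removed and among probesets with 1 symbol, were Svil (r = 0.65), Kdm5c (0.64), Ppp2r5c (0.63), Rab11fip1 (0.63), Sike1 (0.63), Thsd4 (0.60), Gm15886 (0.60), Hdgfl2 (0.59), Fam204a (0.59) and Mospd2 (0.59). The lowest were Ctsr (−0.67), Boll (−0.64), Vwa3b (−0.60), Rtp4 (−0.59) and 9330175E14Rik (−0.59). Alas2 (r = 0.66) would stand above all 10 of the former, though close to Svil. Against the mean of the 4 probesets with several globin symbols, Alas2 had r = 0.62. The listed genes were not compared with that second mean.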

How the data were processed

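RNA of single nucleus accumbens samples was hybridized to Affymetrix mouse genome arrays. The authors deposited RMA output, 1 log2 value per probeset and array (version not given in the sources used here). According to their methods, batches were normalized first on their own and then together, and ComBat removed remaining batch effects, so that shared shifts between batches are already taken out. The values were used as deposited, with no filter. Symbols came from the platform's annotation.

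All 45037 probesets went into limma 3.58.1 (R 4.3.3), where each of the 8 groups had its own mean. Benjamini-Hochberg adjustment ran over all probesets of a comparison, and an adjusted p of 0.01 or less counted as passing. Intervals are the model's 95% intervals. The number of arrays limits the precision. Hybridization sets were inferred from values equal to within 2e-08 (at least 5 per pair).

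The members, gene lists and comparisons were chosen with earlier results of these data known. All members are accounted for. From each list the genes that passed are named, or else up to 2 with the largest change, each at its brightest probeset, and for likeness the 10 highest and 5 lowest genes. Some further genes, in the hypoxia list among others, were named after their values were seen. Comparisons of the changes at 72 h and 7 d with that at 8 h were added after seeing the data. Alternatives were repeated quantile normalization, array medians, another variance model, array weights, sets as a block, fewer arrays, bright probesets, a threshold of 0.05 and each array left out.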

Additional observations from a re-analysis of the deposited data

Results flagged for a closer look

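In 152 groups of arrays (19 probesets in 8 groups), 5 held an array far from the others, where chance alone flags about 1 in 20. The Hba-a2 probeset 1427219_at was high at 5.62 in Ctrl 8 h replicate 50, with the next array at 5.21. For Hbb-bh1, 1437810_a_at was low at 4.30 in Ctrl 0 h replicate 30 and 1450736_a_at was high at 5.18 in CIE 72 h replicate 63. The Hbb-y probeset 1450621_a_at was high at 5.17 in CIE 8 h replicate 23, and the Slc4a1 probeset 1416464_at was high at 4.59 in Ctrl 0 h replicate 74, with the next array at 4.19. All 5 are dim probesets, and none of the bright globin probesets had such an array in any group.

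For the bright globins the difference between CIE and Ctrl was negative at 8 h and positive at 7 d. By the test of the difference itself, in limma with Benjamini-Hochberg adjustment, the change at 7 d lay above that at 8 h by 2.63 for 1428361_x_at, 2.69 for 1452757_s_at and 3.07 for 1417714_x_at (Hba-a1 and Hba-a2) and by 2.89 for 1417184_s_at (the Hbb genes). The largest adjusted p was 0.000151. This comparison was added after seeing the data. It does not test the sign at 7 d, where no member passed. All 6 CIE mice at 7 d and none of the 5 at 8 h lay above the Ctrl mice of their time.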

How the results depend on the processing

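For the 4 bright globin probesets the difference at 8 h was −1.97 to −2.64 under every alternative run, and 4 members passed whichever array was left out (4 to 4), but 2 with the arrays of 8 h alone. At 0 h the count of 1 became 0 with array weights, with sets as a block and with the arrays of 0 h alone, and 4 at the threshold of 0.05. It ranged from 0 to 4 with 1 array left out. At 72 h, at 7 d and for time in Ctrl the count stayed 0 (0 to 0 with arrays left out), and for time in CIE it was 4 to 5 (5 to 5). Why these counts moved was not tested.

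The mean of the 8 adult globin probesets differed by −0.53, −1.23, −0.14 and 0.29 in order of time. With 1 array left out it ranged from −0.65 to −0.41, −1.35 to −1.11, −0.21 to −0.02 and 0.25 to 0.31. It was −1.02, −2.18 and 0.44 at 0 h, 8 h and 7 d with the brightest probeset alone, −0.10, −0.26 and 0.076 with Alas2 and Slc4a1 in place of the globins, and −1.04, −2.28 and 0.54 with the 4 probesets of several symbols, a choice made after seeing the data. Averaging with dim probesets shrinks it by construction.

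With the globin mean as a covariate, 182 probesets passed at 0 h, 716 with no covariate, 77 with array weights, 22 with sets as a block, 0 with the arrays of 0 h alone and 693 at 0.05, with 61 to 241 when 1 array was left out. The correlation of 1416464_at with the globin mean was 0.13, and 0.57 with no centring on group means. The groups share no replicate numbers, so the hybridization sets were the one block that was fitted. Dim probesets, near the floor of the signal, limit what can be said of Slc4a1, the embryonic globins and many of the blood cell markers.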
